A study of Mus musculus with 4 samples.

Results

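The 35 genes described here are genes of macrophages, the tissue-resident phagocytes of the innate immune system, followed in cultures that were labelled as mouse embryonic fibroblasts. They were chosen by symbol and matched to the deposited tables through their Ensembl identifiers. All 35 of the 27597 genes listed were found, each in all 3 tables. Per the labels, the cells came from the skin of OGXICR embryos at age D13.5, the epidermis had been taken off, and a doxycycline-inducible lentiviral system was used for infection. The 4 groups were infected with empty vector, with SKM (SOX2, KLF4 and c-MYC), with OSKM (the same factors and OCT4) or with G3SKM (the same factors and GATA3). Each group had 1 value per gene that combined 2 replicates, and nothing in the labels says whether these came from separate cultures. No spread between replicates can therefore be set against any difference, and no test was possible.

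Macrophages of embryonic skin derive from the yolk sac and fetal liver and live among the fibroblasts of the dermis. The factor PU.1, encoded by Spi1, switches on much of their programme, and their survival depends on the receptor CSF1R and its ligand CSF1, which fibroblasts secrete. They are known for engulfing dying cells, for making the complement component C1q, lysozyme and chemokines, and for reading antibodies and bacterial products through surface receptors. Most of the genes below are used by few cells outside the leukocytes, but Ptprc and other pan-leukocyte genes are not particular to macrophages. Apoe is also made by mesenchymal cells, Pf4 by megakaryocytes and platelets, and Cd14 and Cd68 are not fully restricted to macrophages.

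Promoters of these genes were read from RefSeq (GRCm38.p6), where 27 of the 35 members had an entry of 250 bases before and 50 bases after a transcription start. The letters GAGGAAGT, a core bound by PU.1, were looked for on both strands. They occurred in 4 of the 27 members (14.8%), which were C1qc, Pf4, Ctss and Cd53, and in 3.69% of all 27025 genes with a promoter. The shorter letters GAGGAA, contained in GAGGAAGT, occurred in 16 of 27 members (59.3%) and in 31.3% of all genes. The E-box CACGTG, which is its own reverse complement, occurred in 0 of 27 members and in 8.09% of all genes. The 250 bases upstream of the start of C1qc and Pf4 are printed 5′ to 3′ in the direction of transcription, because these genes were among those with the largest differences between groups and hold GAGGAAGT before the start. Capitals mark ACTTCCTC, its reverse complement, which begins 195 bases before the start in C1qc (chr4:136892915-136893164, minus strand) and 10 bases before it in Pf4 (chr5:90772185-90772434, plus strand).
C1qc: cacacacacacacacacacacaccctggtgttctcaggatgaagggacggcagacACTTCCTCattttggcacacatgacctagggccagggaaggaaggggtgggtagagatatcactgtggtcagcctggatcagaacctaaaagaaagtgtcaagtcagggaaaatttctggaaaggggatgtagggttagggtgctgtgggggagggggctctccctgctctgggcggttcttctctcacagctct
Pf4: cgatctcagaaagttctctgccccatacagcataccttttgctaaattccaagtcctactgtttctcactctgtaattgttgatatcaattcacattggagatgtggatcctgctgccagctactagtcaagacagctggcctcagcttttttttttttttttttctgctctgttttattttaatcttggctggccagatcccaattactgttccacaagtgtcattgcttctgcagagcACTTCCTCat
A match is a description of letters, and binding of PU.1 was not measured.

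The deposited unit is RPKM, in which reads are divided by gene length in kilobases and by library depth, and the length is that of the whole gene span with its introns. Reads behind each value were recovered from the step between neighbouring values, which put the depth of empty vector at 111 mega-reads, SKM at 54.0, OSKM at 74.7 and G3SKM at 102. The SKM library stood apart from the other 3. Across 15779 genes its log2 ratio to empty vector followed transcript GC content with a Spearman rho of 0.463, against 0.053 for OSKM and 0.025 for G3SKM over empty vector. For OSKM over SKM rho was -0.657 and for G3SKM over SKM it was -0.675. Every comparison with SKM is therefore given beside OSKM and G3SKM over empty vector. Median GC was 49.2% for the members and 49.96% for the genes past the filter given below. Sox2, delivered to all groups but empty vector, read 0.260 RPKM there and between 70.7 and 187 in the others. Pou5f1 (OCT4) read 3.69 RPKM in OSKM, Gata3 read 0.571 RPKM in G3SKM, and Klf4 was higher in all 3 groups with factors than in empty vector. Myc, which fibroblasts also express themselves, was highest in empty vector at 15.96 RPKM and between 6.31 and 11.9 in the groups it was delivered to, so its delivery is not seen in these values. For 19 members the values fell on whole reads in all groups, and for the other 16 the reads and their intervals are approximate.

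In the cells with empty vector the macrophage genes were readily detected, and in all 3 groups that carried factors most of them were far lower. Summed over the 35 members, the level was 97.7 RPKM with empty vector, 15.0 with SKM, 8.15 with OSKM and 10.7 with G3SKM. This is 15.3%, 8.34% and 10.98% of the empty vector level. In reads, 46210 fell on the members with empty vector, 3969 with SKM, 4537 with OSKM and 5915 with G3SKM. Scaled to depth, these are 17.7% (17.1 to 18.2), 14.6% (14.2 to 15.1) and 14.0% (13.6 to 14.4) of empty vector. The 3 groups with factors thus lie close together and far from empty vector, and their order depends on the scale, with OSKM lowest in RPKM and G3SKM lowest in reads. Bounds in brackets, here and below, give a 95% interval by the method of Clopper and Pearson from the recovered reads, and they cover counting error only. In these bulk samples, fewer macrophages and less macrophage RNA per cell cannot be told apart.

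Taken gene by gene, all 35 members were lower in SKM than in empty vector, 33 were lower in OSKM and all 35 in G3SKM. Of all 27597 genes, 40.2%, 32.7% and 31.7% were lower in the same comparisons. All 3 comparisons share the empty vector library, so their counts are not independent of each other. A more than 2-fold lower RPKM was found for 30 members with SKM, 32 with OSKM and 31 with G3SKM, and a more than 10-fold lower one for 17, 18 and 19. Shares of all genes were not counted at these exact cuts. By the reads rule given below, which also asks for a 2-fold difference, 13%, 8.86% and 8.06% of all genes compared were lower. The highest value of a member was in empty vector for 33 of the 35, and in OSKM for the other two, Cd163 and Fcgr2b. The lowest value was in OSKM for 20 members, in G3SKM for 8 and in SKM for 7.

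**Figure D1:**
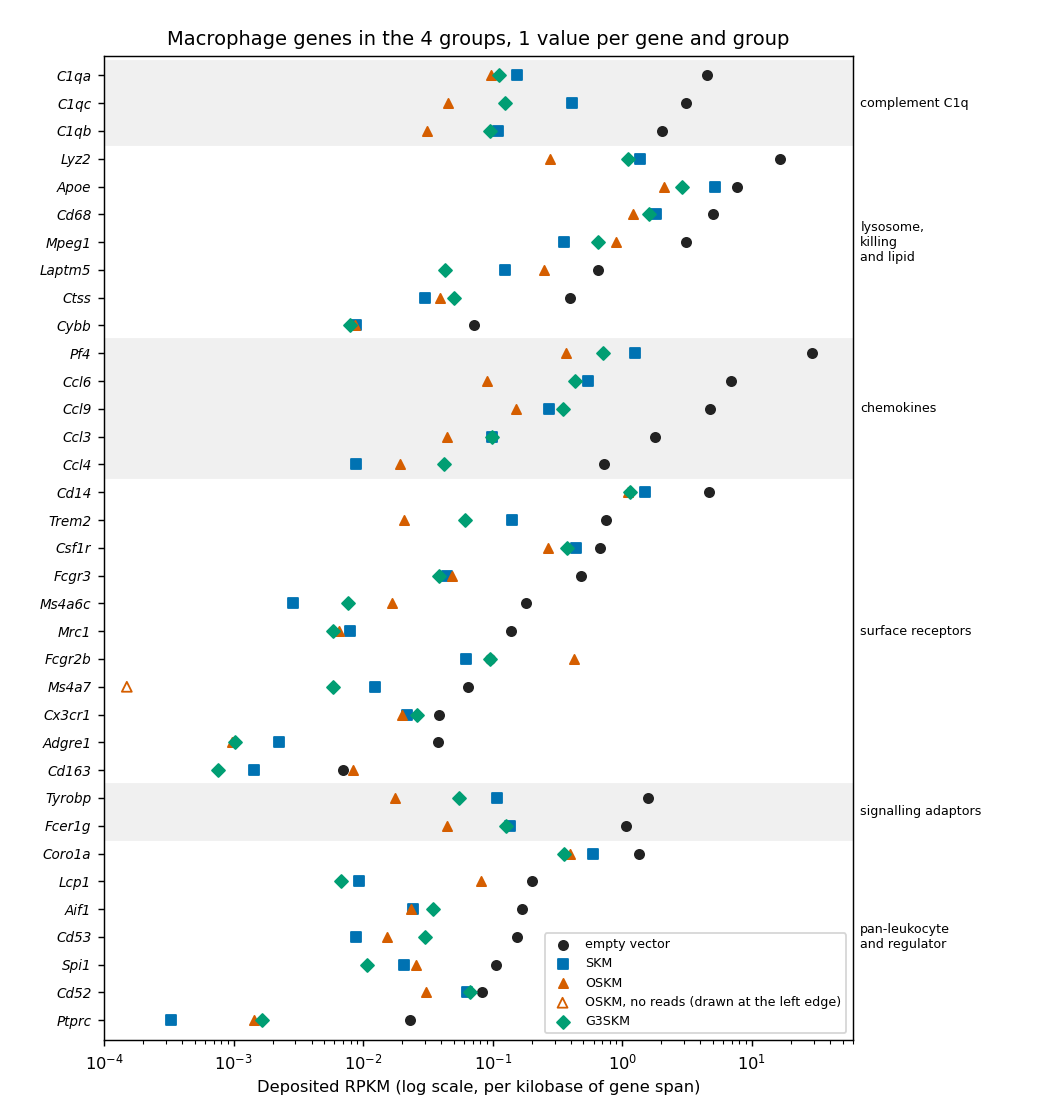
Deposited RPKM (log axis, per kilobase of gene span) of the 35 macrophage genes, grouped by role, with 1 point per gene and group and an open triangle at the left edge for a gene without reads. The black points of empty vector lie to the right of the other 3 groups for 33 genes, and OSKM lies furthest right for Fcgr2b and Cd163.

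A pair of size rules was used in place of a test. The reads rule asks for a log2 ratio of at least 1 in size after adding 1 read to each group, among genes with at least 20 reads over the 4 groups, and it takes in all 35 members. Ccl4 and Ms4a7 reach 20 reads only through empty vector and had to be high there. In SKM, OSKM and G3SKM, Ccl4 had 1, 3 and 9 reads and Ms4a7 had 10, 0 and 9. It put 30 members lower and 0 higher in SKM than in empty vector, where 13% of all 20839 genes so compared were lower and 24.6% higher. In OSKM it put 32 lower and 1 higher than in empty vector (8.86% and 23.3% of all genes). In G3SKM it put 31 lower and 0 higher (8.06% and 25.7%). The median log2 ratio of the members was -3.09 in SKM, -3.33 in OSKM and -3.59 in G3SKM, while that of all genes was 0.23, 0.34 and 0.33. Members within the rule were Csf1r, Cx3cr1, Fcgr2b, Cd52 and Apoe in SKM, Cd163 and Cx3cr1 in OSKM, and Csf1r, Cx3cr1, Fcgr2b and Cd52 in G3SKM.

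The RPKM rule adds 0.1 RPKM to each value and asks for a log2 ratio of at least 1 in size, among the 17028 genes with a mean of at least 0.1 RPKM over the 4 groups. Only 22 members pass that filter, 9 of them through their empty vector value alone, so its counts describe those genes and not the list. It put 19 members lower in SKM than in empty vector and 0 higher, against 9.64% and 15.6% of all genes. In OSKM, 21 were lower and 1, Fcgr2b, was higher than in empty vector, against 6.34% and 11.9% of all genes, and Fcgr2b passed the filter only through its OSKM value. In G3SKM, 20 were lower and 0 higher, against 5.5% and 15.1%. With 1 RPKM added in place of 0.1, the numbers of lower members were 12 in SKM, 13 in OSKM and again 13 in G3SKM, where 3.58%, 2.5% and 2.27% of all genes were lower, and Fcgr2b was no longer higher. With the trend with GC content removed, they were 20, 21 and 20, against 7.55%, 6.4% and 5.38% of all genes.

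**Figure D2:**
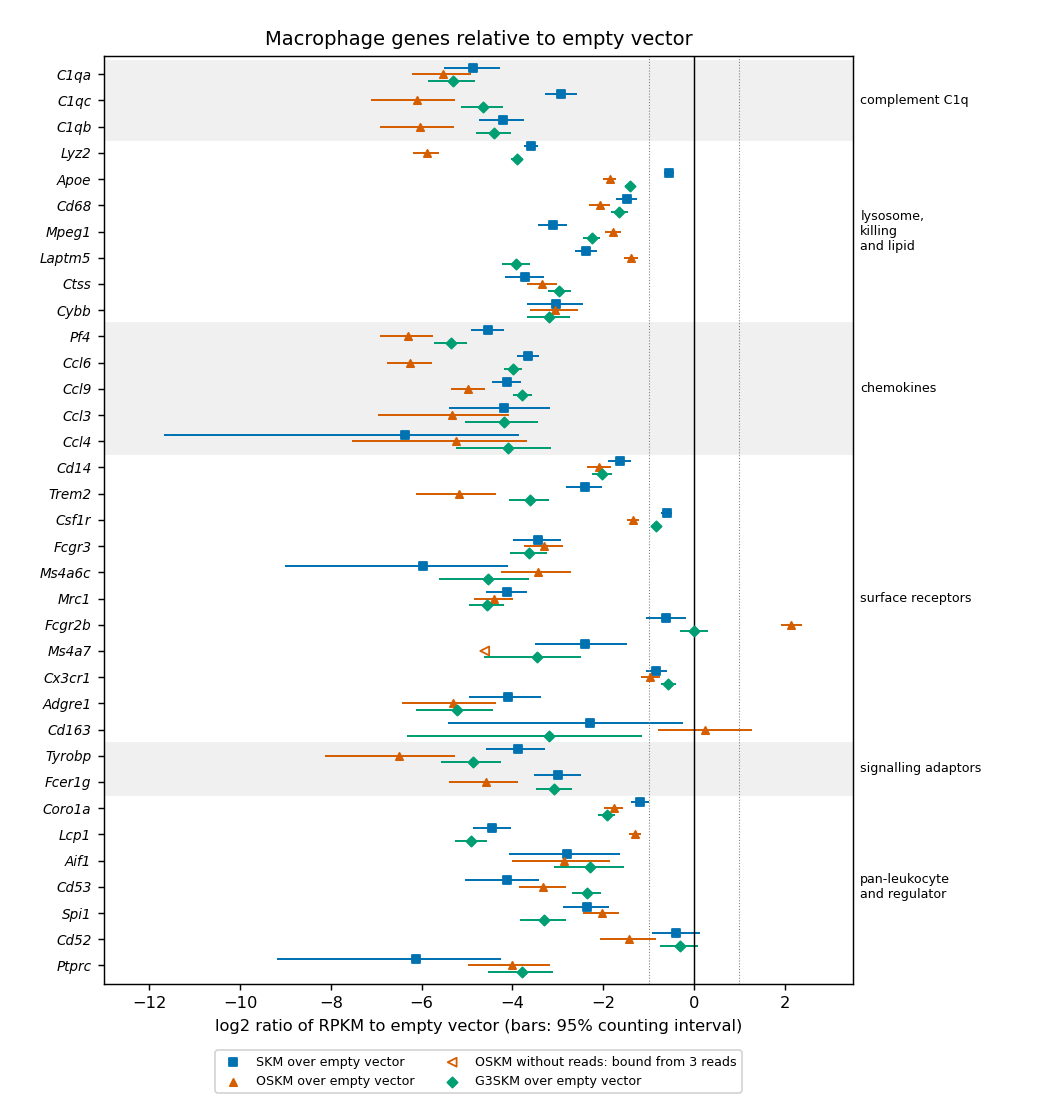
Log2 ratio of RPKM to empty vector for each macrophage gene in SKM, OSKM and G3SKM, with 95% counting intervals as bars, dotted lines at a ratio of 2-fold, and an open triangle for a bound computed from 3 reads. Nearly all points lie left of the line at 0, with Fcgr2b and Cd163 in OSKM to its right.

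Complement C1q, which tags immune complexes and dying cells, is built from the products of 3 neighbouring genes, C1qa, C1qb and C1qc. Together they stood at 6.99% of their empty vector RPKM with SKM, 1.80% with OSKM and 3.45% with G3SKM. C1qa was at 4.48 RPKM with empty vector, 0.154 with SKM, 0.0974 with OSKM and 0.113 with G3SKM. It was 29.1-fold lower in SKM (19.5 to 45.6), 46.0-fold in OSKM (29.99 to 74.6) and 39.8-fold in G3SKM (28.2 to 58.0), so that the 3 intervals overlap. C1qb was at 2.04, 0.110, 0.0309 and 0.0959 RPKM in the same order of groups. It was 18.5-fold lower in SKM (13.3 to 26.6), 65.9-fold in OSKM (39.1 to 121) and 21.2-fold in G3SKM (16.4 to 28.0). C1qc was at 3.11, 0.408, 0.0451 and 0.124 RPKM. Its 3 folds over empty vector were spread more widely than those of C1qa, at 7.61-fold in SKM (5.99 to 9.80), 68.9-fold in OSKM (38.4 to 138) and 25.1-fold in G3SKM (18.4 to 35.2).

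The chemokines, secreted proteins that attract other leukocytes, had the smallest remaining share of all roles in SKM and OSKM. They stood at 5.05% of the level of empty vector with SKM, 1.56% with OSKM and 3.78% with G3SKM. Pf4, platelet factor 4, contributed more to the summed RPKM of empty vector than any other member. It was at 28.9 RPKM with empty vector, 1.25 with SKM, 0.368 with OSKM and 0.708 with G3SKM. That is 23.1-fold lower in SKM (18.1 to 30.2), 78.7-fold in OSKM (53.7 to 121) and 40.9-fold in G3SKM (32.2 to 52.9). Pf4 is shared with platelets, and another platelet chemokine, Ppbp, was at 1.56, 0.120, 0.295 and 0.249 RPKM in the 4 groups. Whether platelet or megakaryocyte RNA took part in the Pf4 values was not tested.

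Ccl6, a chemokine made by myeloid cells, was at 6.84 RPKM with empty vector, 0.544 with SKM, 0.0900 with OSKM and 0.431 with G3SKM. The OSKM value was 76.0-fold below empty vector (54.6 to 109), while SKM and G3SKM were close to each other at 12.6-fold (10.7 to 14.9) and 15.9-fold (13.9 to 18.2). Ccl9, a related chemokine, was at 4.76, 0.272, 0.152 and 0.346 RPKM, which is 17.5-fold, 31.3-fold and 13.8-fold lower than empty vector. Ccl3 and Ccl4, chemokines that activated macrophages release, were low in the groups with factors. Ccl3 had 298 reads with empty vector, 8 with SKM, 5 with OSKM and 15 with G3SKM. Ccl4 had 169, 1, 3 and 9 reads, so that its folds of 82.2 in SKM (14.6 to 3265) and 37.9 in OSKM (12.7 to 186) are poorly determined.

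Genes of the lysosome, of microbial killing and of lipid handling kept 26.9% of their empty vector level with SKM, 14.3% with OSKM and 19.1% with G3SKM. Lyz2, the lysozyme of myeloid cells that cuts bacterial cell walls, was at 16.4 RPKM with empty vector, 1.37 with SKM, 0.276 with OSKM and 1.096 with G3SKM. It was 11.99-fold lower in SKM (10.8 to 13.3), 59.2-fold in OSKM (48.8 to 72.7) and 14.9-fold in G3SKM (13.7 to 16.3). OSKM was again the lowest group, and SKM and G3SKM lay within 1.25-fold of each other. Ctss, the lysosomal protease cathepsin S, was at 0.394, 0.0300, 0.0388 and 0.0505 RPKM, or 13.1-fold, 10.1-fold and 7.80-fold below empty vector. The pseudogene Hmgb1-ps5 has an exon in the span of Ctss, on the same strand, and was at 3.32, 0.566, 1.56 and 1.79 RPKM. Its part in the Ctss values was not tested. Cybb, a membrane subunit of the phagocyte oxidase, had 420, 25, 34 and 42 reads, and its 3 folds lay between 8.17 and 9.14.

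Mpeg1 encodes perforin-2, a pore-forming protein of phagocytes. It was at 3.08 RPKM with empty vector, 0.357 with SKM, 0.894 with OSKM and 0.647 with G3SKM, and SKM was the lowest group. Laptm5, a lysosomal membrane protein of haematopoietic cells, was at 0.645, 0.125, 0.248 and 0.0428 RPKM. Here G3SKM was lowest, 15.1-fold below empty vector (12.3 to 18.6), while OSKM was 2.60-fold below (2.34 to 2.90).

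Apoe and Cd68 differed less. Apoe, the lipid carrier apolipoprotein E, was at 7.60 RPKM with empty vector, 5.23 with SKM, 2.09 with OSKM and 2.87 with G3SKM. It was 1.45-fold lower in SKM (1.35 to 1.57), 3.63-fold in OSKM (3.29 to 4.01) and 2.65-fold in G3SKM (2.46 to 2.87). Cd68, a lysosomal glycoprotein widely used as a macrophage stain, was at 5.05, 1.81, 1.20 and 1.61 RPKM. Its folds below empty vector were 2.78 in SKM (2.38 to 3.27), 4.205 in OSKM (3.58 to 4.96) and 3.13 in G3SKM (2.76 to 3.55).

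**Figure D3:**
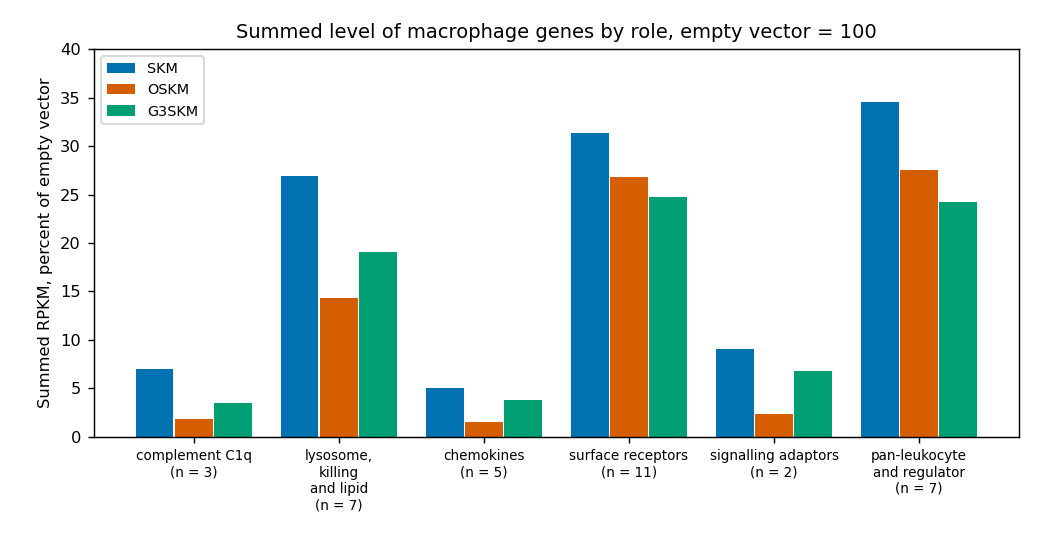
RPKM summed over the members of each role in SKM, OSKM and G3SKM, as a percent of the same sum in empty vector. Complement C1q, chemokines and signalling adaptors are each at or under 9.10%, and surface receptors and pan-leukocyte genes are between 24.3% and 34.6%.

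Both signalling adaptors carry the activation motif that couples receptors to kinases. Tyrobp, the adaptor DAP12 of TREM2 and related receptors, was at 1.59 RPKM with empty vector, 0.107 with SKM, 0.0177 with OSKM and 0.0546 with G3SKM. It was 14.8-fold lower in SKM (9.77 to 23.97), 90.0-fold in OSKM (38.7 to 280) and 29.1-fold in G3SKM (19.1 to 47.8). Fcer1g, the common chain of Fc receptors, was at 1.08, 0.135, 0.0447 and 0.127 RPKM, or 7.96-fold, 24.1-fold and 8.44-fold below empty vector. Trem2, the lipid receptor that signals through Tyrobp, had 645, 59, 12 and 48 reads. It was 5.32-fold lower in SKM (4.07 to 7.06), 36.1-fold in OSKM (20.5 to 70.3) and 12.3-fold in G3SKM (9.15 to 16.8). This order of groups was that of Tyrobp, and also of Lyz2, Pf4 and the C1q genes, among others.

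The 11 surface receptors were the most mixed role. Adgre1, the F4/80 antigen of macrophages, had 529 reads with empty vector, 15 with SKM, 9 with OSKM and 13 with G3SKM. It was 17.1-fold lower in SKM (10.3 to 30.9), 39.5-fold in OSKM (20.7 to 86.9) and 37.2-fold in G3SKM (21.6 to 70.3). Mrc1, the mannose receptor, was at 0.138, 0.00793, 0.00652 and 0.00585 RPKM, with folds of 17.4, 21.2 and 23.6 whose intervals overlap. Fcgr3, an activating receptor for antibodies, was at 0.479, 0.0444, 0.0486 and 0.0386 RPKM, with folds of 10.8, 9.86 and 12.4. For Mrc1 and Fcgr3 the 3 groups with factors could not be told apart by counting error.

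Cd14, the co-receptor for bacterial lipopolysaccharide, was at 4.68 RPKM with empty vector, 1.503 with SKM, 1.103 with OSKM and 1.15 with G3SKM, between 3.12-fold and 4.25-fold lower. Ms4a6c, a tetraspan membrane protein of myeloid cells, was at 0.180, 0.00288, 0.0167 and 0.00768 RPKM. Ms4a7, a relative of it, had 109, 10, 0 and 9 reads. In OSKM it was at least 24.4-fold below empty vector, a bound from a floor of 3 reads per group.

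Csf1r, the receptor for the growth factor CSF1, differed less than most other receptors. It was at 0.669 RPKM with empty vector, 0.441 with SKM, 0.265 with OSKM and 0.372 with G3SKM, with folds of 1.52 (1.40 to 1.65), 2.53 (2.31 to 2.77) and 1.80 (1.68 to 1.93). Cx3cr1, the receptor of the chemokine CX3CL1, was at 0.0386, 0.0217, 0.0198 and 0.0261 RPKM, with folds between 1.48 and 1.95. In the GENCODE M21 annotation, 4 members hold exons of other protein-coding genes in their span. These are Csf1r with Hmgxb3, Cx3cr1 with 5 genes inside its span, Coro1a with Bola2 and Cd52 with Crybg2. Hmgxb3 was at 0.812, 1.47, 1.13 and 1.28 RPKM and Crybg2 at 0.00271, 0.0779, 0.0468 and 0.0715, both lowest in empty vector. Bola2 was lowest there too, at 29.2, 69.0, 39.5 and 49.2 RPKM. Of the 5 genes inside the span of Cx3cr1, only Csrnp1, on its strand, was highest in empty vector, at 7.42, 1.63, 0.990 and 1.29 RPKM. Gorasp1, also on its strand, was at 1.97, 3.06, 2.54 and 2.56 RPKM and Ttc21a at 0.00358, 0.0405, 0.0217 and 0.0391, both lowest in empty vector. Wdr48 was at 1.59, 1.57, 1.97 and 1.74 RPKM and Xirp1 at 0.0411, 0.0432, 0.0190 and 0.0350. Whether the authors counted by strand is not given in the sources used here, so reads of these 4 members and of their partners cannot be told apart.

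Fcgr2b and Cd163 went the other way in OSKM. Fcgr2b, the inhibitory receptor for antibodies, was at 0.0957 RPKM with empty vector, 0.0625 with SKM, 0.424 with OSKM and 0.0955 with G3SKM. OSKM was 4.44-fold above empty vector (3.75 to 5.25) and 6.79-fold above SKM (5.17 to 8.93), and G3SKM was level with empty vector at 1.00-fold (0.812 to 1.24). Cd163, the haemoglobin scavenger receptor, had 20 reads with empty vector, 2 with SKM, 16 with OSKM and 2 with G3SKM. With so few reads, the OSKM value of 1.19-fold above empty vector (0.576 to 2.42) is not distinguishable from it. Fcgr3, in the same receptor family as Fcgr2b, was 9.86-fold lower in OSKM than in empty vector.

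The pan-leukocyte genes and the regulator Spi1 had low RPKM in all groups, and only Coro1a passed the filter at 0.1 RPKM. Spi1, the gene of PU.1, had 390 reads with empty vector, 37 with SKM, 64 with OSKM and 36 with G3SKM. It was 5.13-fold lower in SKM (3.65 to 7.39), 4.10-fold in OSKM (3.14 to 5.42) and 9.90-fold in G3SKM (7.03 to 14.3). Ptprc, the phosphatase CD45 that marks all leukocytes, was at 0.0229, 0.000329, 0.00143 and 0.00166 RPKM, and about 2 reads lie behind its SKM value. Aif1, the actin-binding protein IBA1, was at 0.169, 0.0243, 0.0234 and 0.0345 RPKM. Cd53, a leukocyte tetraspanin, was at 0.154, 0.00887, 0.0154 and 0.0299 RPKM. These 3 genes were highest in empty vector. Among the groups with factors all 3 were highest in G3SKM, and they differed by at most 5.06-fold. Aif1 had 7, 9 and 18 reads in SKM, OSKM and G3SKM, and its interval for G3SKM over SKM (0.545 to 3.88) took in equality. Ptprc had 2, 12 and 19 reads in these groups.

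Lcp1, the actin-bundling protein L-plastin, stood out in OSKM. It had 2232 reads with empty vector, 50 with SKM, 608 with OSKM and 68 with G3SKM. It was 21.7-fold lower in SKM (16.4 to 29.3) and 29.99-fold in G3SKM (23.6 to 38.8), but 2.47-fold in OSKM (2.26 to 2.70). Gm15629, an antisense gene whose exons overlap those of Lcp1, was at 0.295, 0.00842, 0.0913 and 0.0269 RPKM. Its part in the Lcp1 reads was not tested. Coro1a, an actin-binding protein of leukocytes, was at 1.34, 0.591, 0.393 and 0.353 RPKM, or 2.27-fold, 3.41-fold and 3.79-fold lower. Cd52, a small surface glycoprotein, was at 0.0826, 0.0630, 0.0307 and 0.0663 RPKM. Its intervals in SKM (0.917 to 1.91) and G3SKM (0.934 to 1.67) take in a ratio of 1. Without the 4 members whose span holds exons of another coding gene, 20 members were past the filter. By the RPKM rule 18 of these were lower in SKM, 19 in OSKM and 19 in G3SKM than in empty vector, against 9.64%, 6.34% and 5.5% of all genes.

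Adding OCT4 or GATA3 to SKM was examined in the authors' own pairings, OSKM against SKM and G3SKM against SKM. Both share the SKM library, which stood apart in GC content. By the reads rule, 13 members were lower in OSKM than in SKM and 6 higher, against 7.94% and 13.8% of all genes. The lower members were Lyz2, C1qb, C1qc, Pf4, Adgre1, Tyrobp, Fcer1g, Ms4a7, Trem2, Ccl3, Ccl6, Cd52 and Apoe, and the higher ones Cd163, Ms4a6c, Ptprc, Mpeg1, Fcgr2b and Lcp1. By the RPKM rule 5 were lower (Lyz2, C1qc, Pf4, Ccl6 and Apoe) and 2 higher (Mpeg1 and Fcgr2b), against 4.25% and 6.56%, so the share of members higher was near that of all genes by either rule. With the GC trend removed, Apoe and Mpeg1 fell within the RPKM rule while Ccl9 (lower) and Laptm5 (higher) came to pass it, which gave 5 lower and 2 higher, against 2.57% and 3.81%. Cd163, Ms4a6c and Ptprc had 2 reads each in SKM, and the intervals of Ptprc, Adgre1 and Ccl3 took in equality. Among the members whose intervals lay clear of equality were C1qc, 9.05-fold lower in OSKM (4.77 to 18.9), Trem2, 6.80-fold lower (3.62 to 13.9), and Lcp1, 8.79-fold higher (6.58 to 11.98).

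G3SKM and SKM lay closer together. By the reads rule 5 members were lower in G3SKM (C1qc, Adgre1, Laptm5, Ms4a7 and Trem2) and 3 higher (Ptprc, Cd53 and Ccl4), against 3.84% and 12.8% of all genes. The intervals of Adgre1, Ms4a7 and Ccl4 took in equality, and Ptprc had 2 reads in SKM. By the RPKM rule only C1qc was lower (3.30-fold, 2.22 to 4.97) and 0 members were higher, against 2.27% and 7.65%. With the GC trend removed, C1qc too was within the rule and 0 members were lower, against 1.24% of all genes. The median log2 ratio of reads over the 35 members was -0.25 for G3SKM over SKM and -0.59 for OSKM over SKM, and over all genes 0.12 and 0.09.

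**Figure D4:**
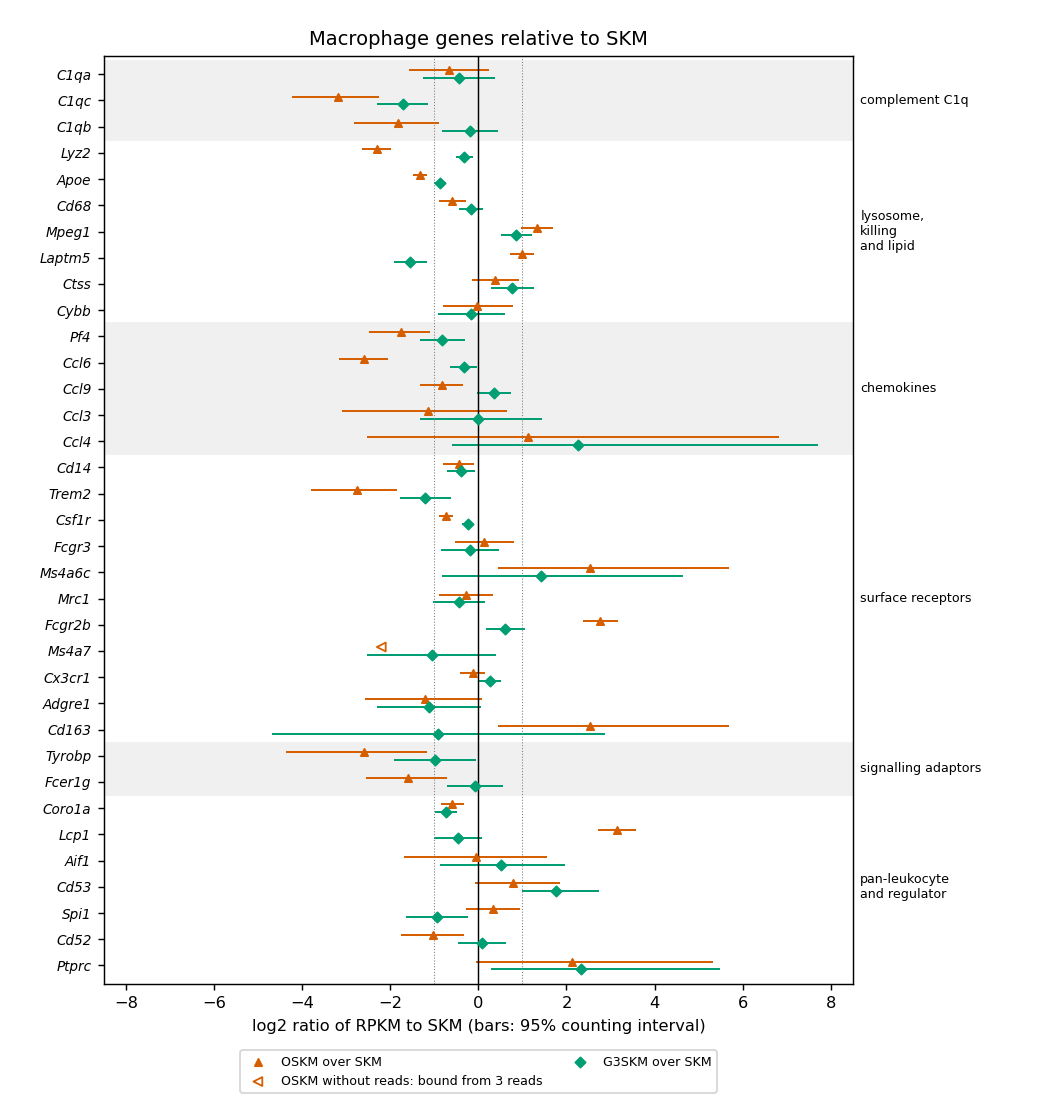
Log2 ratio of RPKM to SKM for each macrophage gene in OSKM and G3SKM, with 95% counting intervals as bars, dotted lines at a ratio of 2-fold, and an open triangle for a bound computed from 3 reads. OSKM points lie on both sides of 0, with C1qc, Trem2, Ccl6 and Tyrobp furthest left among those with reads and Lcp1 and Fcgr2b furthest right, and most G3SKM points lie near 0.

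Levels of different genes were compared per kilobase of exon, since gene spans differ in intron content. On that scale empty vector was led by Lyz2 at 62.1, Pf4 at 38.1, Ccl6 at 19.8, C1qa at 12.4 and C1qb at 11.3 exon RPKM, and Cd163 was lowest at 0.0329. In SKM the highest members were Apoe at 7.53, Lyz2 at 5.18 and Cd68 at 2.80. OSKM was led by Apoe at 3.02, Cd68 at 1.85, Laptm5 at 1.505, Csf1r at 1.45 and Fcgr2b at 1.31. In G3SKM they were Lyz2 at 4.16, Apoe at 4.13 and Cd68 at 2.49, the first pair hardly apart. Fcgr2b held rank 32 of 35 in empty vector and rank 5 in OSKM, while C1qa went from rank 4 to rank 18 in each of the other 3 groups. The order of the members by level thus differed between groups.

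A wider list of 76 genes of myeloid cells was set beside the members, of which 71 were listed. On the sign of the difference alone, 62 of the 71 were lower in SKM than in empty vector, 62 in OSKM and 59 in G3SKM. Of all 27597 genes, 40.2%, 32.7% and 31.7% were lower on the sign. The median log2 ratios of reads were -1.77, -2.01 and -1.75 for the 71, against 0.23, 0.34 and 0.33 for all genes with at least 20 reads. By the RPKM rule 25 passed the filter, of which 9 were lower with SKM, 12 with OSKM and 12 with G3SKM, and 0 were higher in each. Of the 25, 10 passed only through their value in empty vector and had to be high there, and these counts describe the genes past the filter alone. Over all genes the shares lower by the RPKM rule were 9.64%, 6.34% and 5.5%, and the shares higher 15.6%, 11.9% and 15.1%. The genes described next are those the size of the log2 ratio picks among genes past the filter. C3ar1, the receptor of complement C3a, was at 1.33 RPKM with empty vector, 0.0308 with SKM, 0.0386 with OSKM and 0.0819 with G3SKM. Ccr1, a chemokine receptor, was at 0.755, 0.0113, 0.0122 and 0.0300 RPKM, and C5ar1, the receptor of C5a, at 0.693, 0.0390, 0.0105 and 0.0593. Gpnmb, a lysosomal glycoprotein, was at 2.23, 0.369, 0.220 and 0.261 RPKM. All 4 were highest in empty vector. C3ar1, Ccr1 and C5ar1 passed the filter only through their empty vector value, so for them this follows from the filter.

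Against SKM, 3 of the 25 wider myeloid genes past the filter were lower in OSKM and 1 in G3SKM. Of all genes, 4.25% and 2.27% were lower in these comparisons. Pirb, an inhibitory receptor, was at 0.225 RPKM with empty vector, 0.206 with SKM, 0.0268 with OSKM and 0.194 with G3SKM, a log2 ratio of -1.27 for OSKM over SKM. Cebpa, a myeloid transcription factor also used outside blood, was at 2.23, 3.18, 1.48 and 1.41 RPKM, with ratios of -1.05 in OSKM and -1.12 in G3SKM over SKM. Cebpa was higher in SKM than in empty vector, unlike the members.

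Most of the secreted factors that feed and attract macrophages were lower in the groups with factors as well. Csf1, the ligand of CSF1R, was at 29.7 RPKM with empty vector, 12.4 with SKM, 6.36 with OSKM and 9.07 with G3SKM. The chemokine Cxcl12 was at 11.8, 2.68, 1.51 and 3.08 RPKM. Ccl2, which attracts monocytes, was at 93.5, 34.8, 15.9 and 44.6 RPKM, and its relative Ccl7 at 58.0, 25.5, 15.9 and 46.3. Cx3cl1, the ligand of CX3CR1, was at 1.56, 0.704, 0.533 and 0.339 RPKM and Tgfb1 at 3.36, 1.80, 1.11 and 0.893. Ccl8, another monocyte chemokine, went the other way in OSKM, at 0.0334 RPKM in empty vector, no reads in SKM, 0.829 RPKM in OSKM and 0.0549 in G3SKM. Of the 7 such genes past the filter, 5 were lower in SKM, 6 in OSKM and 5 in G3SKM than in empty vector by the RPKM rule. The shares of all genes by that rule are those given for the wider list. Ccl8 passed the filter only through its value in OSKM, so its call as higher there follows from the filter. Il34, Csf2 and Csf3 did not pass the filter. On the sign of the difference alone, 9 of all 10 secreted factors were lower in SKM than in empty vector, 8 in OSKM and 7 in G3SKM. The shares of all genes lower on the sign were 40.2%, 32.7% and 31.7%. Il34 went the other way in all groups with factors, at 0.0188 RPKM with empty vector against 0.0277, 0.0294 and 0.0313. Whether these factors bore on the macrophage genes was not tested.

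Markers of other cell types that skin could hold were read in the same way, in RPM summed over each list. The 35 macrophage genes stood at 416 RPM with empty vector, 73.4 with SKM, 60.7 with OSKM and 58.3 with G3SKM. The 15 fibroblast genes stood at 17051, 13036, 7201 and 7518, and all 15 passed the filter. Col1a1, a collagen chain, was at 332, 352, 143 and 166 RPKM and Vim, vimentin, at 342, 175, 160 and 127, so fibroblast markers were abundant in every group. By the RPKM rule 3 fibroblast genes were lower in SKM, 10 in OSKM and 11 in G3SKM than in empty vector, and 0, 2 and 0 higher. Of all genes, 9.64%, 6.34% and 5.5% were lower and 15.6%, 11.9% and 15.1% higher.

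Other blood cells left few reads. Neutrophil genes stood between 0.130 and 0.567 RPM, T and NK cell genes between 0.738 and 3.59 and B cell genes between 0.567 and 1.14, and 7 of 10 T and NK cell genes had no reads in empty vector. The highest of these were S100a8 and S100a9, Lck and Cd3g, and Vpreb1 and Cd79a, all at or under 0.181 RPKM in every group. Mast cell genes (Gata2 and Kit highest) stood between 6.30 and 12.9 RPM. Dendritic and Langerhans cell genes (H2-Ab1 and H2-Eb1 highest) stood between 9.10 and 11.9, lowest in empty vector. The erythroid globin Hbb-y had 0 reads with empty vector, 72 with SKM, 129 with OSKM and 309 with G3SKM, and Hba-a1 had between 2 and 18.

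In RPM the endothelial list was highest in empty vector, at 94.2 against 39.2, 43.3 and 34.6. Most of this came from Flt1, a receptor of vascular growth factors, at 0.534, 0.124, 0.0950 and 0.107 RPKM, while Egfl7 was at 0.255, 0.731, 0.524 and 0.518. Summed in RPKM, the endothelial list was lowest in empty vector, at 0.869 against 1.44, 1.11 and 1.22. Of its 12 genes, 4 were lower on the sign in SKM, 2 in OSKM and 3 in G3SKM than in empty vector, against 40.2%, 32.7% and 31.7% of all genes. Platelet and megakaryocyte genes (Gp1bb and Ppbp highest) stood at 33.5, 28.6, 19.1 and 17.9 RPM. Osteoclast genes, led by Ctsk and Acp5, stood at 58.2, 43.2, 28.3 and 41.5. Relative to empty vector, none of these lists was as low in the groups with factors as the macrophage genes in RPM, and the part of any other cell type in the macrophage values was not tested.

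**Figure D5:**
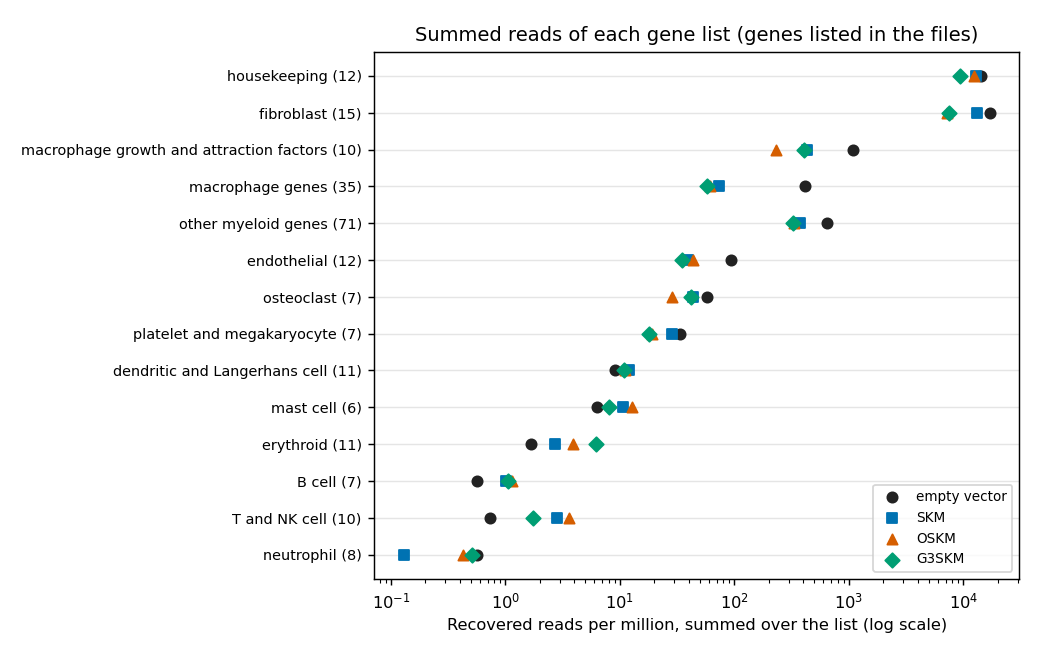
Recovered reads scaled to depth (RPM, log axis) summed over each gene list, with the number of genes listed in brackets and 1 point per group. The macrophage genes show a wide gap between empty vector at 416 and the other 3 groups at 58.3 to 73.4, while the housekeeping genes lie close together.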

How the data were processed

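RNA-seq of 4 groups of mouse embryonic fibroblasts was read from 3 deposited tables, 1 for each pairing of SKM with empty vector and of OSKM or G3SKM with SKM. Per the file headers, the values of each group are RPKM made by the authors, and a further column holds the log2 of their ratio, which the authors deposited and which matched the columns to within 0.0017. TopHat 1.3.0 and the build mm9 are named, per the submitters' processing notes. The read counter and its annotation are not given in the sources used, nor is how replicates were merged. The labels' protocols say that amplified cDNA went through additional PCR cycles, so reads are not independent molecules and counting intervals are too narrow.

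The members and gene lists were chosen with earlier results of these data known. A value of 0.001, or a gene not listed in a table, was read as 0. The SKM column was the same in all 3 tables (largest difference 0), so columns of different tables were set side by side. Symbols, spans, exon lengths and GC came from GENCODE M21, which belongs to a later build, and no coordinates of the values are given. Depth was recovered as the step at which RPKM times span is whole. Of genes holding between 1 and 1000 reads, from 74.7% (SKM) to 76.7% (G3SKM) lay within 0.05 of a whole number, where 10% would by chance.

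With 1 value per group there is no test. The size rule, its pseudocount of 0.1 RPKM and its filter at a mean of 0.1 RPKM were applied to all genes, and the procedure was tested on simulated data. Columns for OSKM and G3SKM were set against empty vector to see the members without the SKM library. All members are named with their values, as are up to 3 higher and 3 lower genes of the wider myeloid list per comparison, the growth and attraction factors past the filter, and the 2 genes of highest mean RPKM in each list of another cell type. A gene that this rule names is not reported here. Alternatives were a pseudocount of 0.01 or 1 RPKM, no filter or one at 1 RPKM, a size rule of 2, centring on the median, a trimmed mean (30% of ratios, 5% of levels), exon length, removal of the GC trend in 20 bins, and, for the sum, division by housekeeping genes and leaving out Apoe and Lyz2. The reads rule, the sum in reads and the counts without members that hold exons of other coding genes were added after seeing the data. The software was Python 3.11.15 with SciPy 1.17.1, numpy 2.4.6, pandas 2.3.3 and matplotlib 3.10.9.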

Additional observations from a re-analysis of the deposited data

How the results depend on the processing

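No paired analysis was possible because each group has 1 value per gene that combines its 2 replicates, and for the same reason no replicate could be left out. No called member ratio changed direction under any alternative; of 1215 recomputed ratios of single members, 328 moved by more than the counting interval and 887 did not. Percentages in brackets are the shares of all genes so compared. With a pseudocount of 0.01 RPKM, 9 of 22 members were lower in OSKM than in SKM (6.09%). In G3SKM, 3 were lower (3.15%) and 1 higher (10.4%) than in SKM. With 1 RPKM, 12, 13 and 13 were lower in SKM, OSKM and G3SKM than in empty vector (3.58%, 2.5% and 2.27%). In OSKM, 0 were higher than in empty vector (2.89%). Relative to SKM, 1 was lower (0.981%) and 0 higher (1.53%) in OSKM, and 0 were lower in G3SKM (0.658%). The filter at 1 RPKM kept 9 members, so fewer were compared there. Of these, 8, 9 and 9 were lower than in empty vector (9.41%, 6.16% and 5.76%), and 0 were higher in OSKM (9.82%). Relative to SKM, 1 was higher in OSKM (5.5%) and 0 were lower in G3SKM (2.22%). Under a size rule of 2, 12 members were lower (1.19%) and 0 higher (2.67%) in OSKM than in empty vector. Relative to SKM, 0 were lower (0.658%) and 0 higher (0.91%) in OSKM, and 0 were lower in G3SKM (0.188%).

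Per exon length, 32 members were compared, and shares of all genes are again in brackets. In OSKM, 9 were lower (5.54%) and 3 higher (10.0%) than in SKM. In G3SKM, 2 were lower (2.50%) and 1 higher (8.80%) than in SKM. With the GC trend removed, 0 were lower in G3SKM than in SKM (1.24%). The rule on recovered reads was added after seeing the data and compares more members. By it, 30, 32 and 31 were lower in SKM, OSKM and G3SKM than in empty vector (13%, 8.86% and 8.06%). In OSKM, 13 were lower (7.94%) and 6 higher (13.8%) than in SKM. In G3SKM, 5 were lower (3.84%) and 3 higher (12.8%) than in SKM. In place of SKM, OSKM against empty vector had 1 higher member (11.9%) where SKM had 0 (15.6%). For the other counts the cause of the move was not tested.

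The summed level in SKM, OSKM and G3SKM, as a percent of empty vector, was 16.9%, 10.1% and 17.9% after division by the housekeeping sum, 13.4996%, 7.99% and 10.49% per exon length, 11.4%, 7.84% and 9.18% without Apoe and Lyz2, and 17.7%, 14.6% and 14.0% in reads. The order of the 3 groups with factors therefore depends on the scale, and the highest value was 17.9%. Depth limits Cd163, Ccl4, Ms4a6c and Ptprc, with about 1 or 2 reads in SKM.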
